A study of Mus musculus with 63 samples.

Results

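Mouse embryonic stem (ES) cells carrying a control construct were compared before and on day 6 of a differentiation culture that the labels name F4H. The comparison held 4 RNA-seq libraries of the 63 samples in the series: 2 titled ES oeCtrl, undifferentiated, and 2 titled ES oeCtrl F4H day 6. They were chosen by their titles alone. All 4 came from C57BL/6 cells, and 2i medium without serum was used for ES cells, on mitomycin C-treated fibroblast feeders or on Matrigel, with no label saying which library came from which. The undifferentiated libraries have the genotype oeCtrl, the control of cells titled oeYy1. The day 6 libraries are titled oeCtrl as well, but their genotype field reads control and their deposited tables are named without a construct, so they may be cells without one. The labels do not spell out F4H. The day 6 libraries came in another submission than the undifferentiated ones, so that day and submission cannot be told apart. The labels do not say whether the 2 replicates of a group came from separate cultures, so the p-values rest on a spread between libraries that could be purely technical. The comparison asked which genes changed in ES control cells under F4H. Its change was then set against that of 2 other pairs treated alike: extended pluripotent stem (EPS) cells with a control hairpin, titled shCtrl and kept in LCDM medium before F4H, and ES oeYy1 cells (2 libraries per stage each). The EPS day 6 libraries have the genotype control too, with tables named without a construct, while both stages of the oeYy1 cells carry that genotype.

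ES cells in 2i medium are held in the naive state, in which inhibition of MEK and GSK3 keeps a network of transcription factors around Nanog, Esrrb, Klf4 and Tfcp2l1 active. On leaving this state, cells of the embryo and of cultures pass through a formative stage marked by Fgf5, Otx2 and Pou3f1, and then take up primitive streak, neural or other fates under FGF, Wnt, BMP and Nodal signals. Trophoblast and primitive endoderm, the extraembryonic lineages, separate from the epiblast earlier in the embryo, and ES cells give rise to trophoblast rarely.

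Counts on genes came to 14540534 and 15300525 in the undifferentiated libraries and to 19932675 and 16967179 on day 6. Levels are in CPM, counts on a gene brought to one library size by TMM scaling, in the order replicate 1 and replicate 2. A gene with 0 counts can reach about 0.206 CPM before and 0.168 CPM on day 6 if a count of 0 allows 3 counts, a limit that covers counting error only. The chi-square between the counts of the 2 replicates was 7.10 per degree of freedom before and 2.76 on day 6, so replicates differed by more than counting error and neither pair was a copy. Transcripts of the mitochondrial genome took 2.80 to 2.99% of counts before and 1.49 to 1.60% on day 6. Yy1 itself stood at 122 and 128 CPM before and 124 and 129 CPM on day 6, and the change was not called (log2 fold change 0.012 ± 0.069, adjusted p = 0.876). In oeYy1 cells Yy1 stood at 957 and 973 CPM before and 324 and 320.3 CPM on day 6, above every oeCtrl library. The 5 ES cell markers (Pou5f1, Nanog, Sox2, Zfp42 and Esrrb) summed to 2980 and 3013 unscaled CPM (without TMM factors) before and to 179 and 178 on day 6.

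Changes are log2 fold changes of day 6 against undifferentiated cells, with the standard error after ±, from edgeR's quasi-likelihood test, and calls were made where the p adjusted by Benjamini and Hochberg's method was under 0.05. Of 17207 genes tested, 12564 were called (73%), 6388 higher on day 6 (37.1%) and 6176 lower (35.9%). At least 2-fold changes were called for 4192 genes upward (24.4%) and 3391 downward (19.7%). At least 8-fold changes were called for 1782 genes upward (10.4%) and 954 downward (5.54%). The libraries of the 2 groups did not overlap in 86.7% of genes, and the median change of all genes was 0.03. The 3 undifferentiated ES libraries labelled without a construct served as an alternative reference, called the no-construct reference below. With it the medians of 36 of 41 gene lists moved by more than the spread between libraries. A list's value with it is given where its fold, or its count called higher or lower, moved by over 1.5 times. With so many genes called, the size of each change and the counts of its list are given beside the call.

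**Figure D1:**
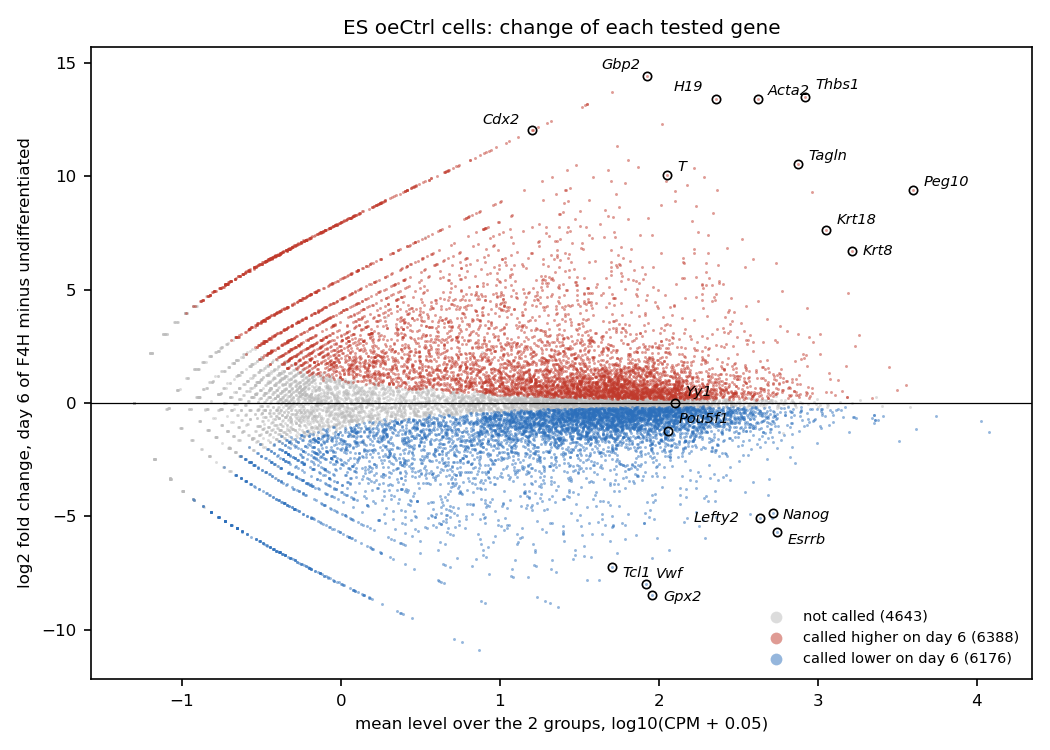
Change of each of the 17207 tested genes (vertical axis, log2 fold change of day 6 minus undifferentiated) against its mean level (horizontal axis, log10 of CPM + 0.05), with called genes in red (6388 higher) and blue (6176 lower) and some genes of the text circled. The straight lines of points at the left edges are genes with 0 or very few counts in one group, whose fitted change depends on the small count added by the fit.

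The 10 largest rises were of genes at or near 0 in undifferentiated cells. Thbs1, a matrix glycoprotein, stood at 0.0699 and 0.203 CPM before and 1672 and 1669.5 CPM on day 6. The ratio, from 4 counts in the undifferentiated libraries, was 12140.3-fold, with a 95% counting interval of 4741 to 44559. Acta2, smooth muscle actin, stood at 0.0699 and 0.0678 CPM before and 862 and 812 CPM on day 6, a ratio of 12189-fold, with a 95% counting interval of 3374 to 100649. H19, an imprinted noncoding RNA, stood at 0 and 0.0678 CPM before and 468 and 446 CPM on day 6. For the other 7 no undifferentiated count was found, and only a lower bound can be given. Gbp2, an interferon-inducible GTPase, had 167 and 171 CPM on day 6, at least 818-fold higher, and its paralog Gbp2b had 68.3 and 72.4 CPM, at least 341-fold higher. Reads of such paralogs can be split uncertainly. Col12a1, a fibril-associated collagen, had 103 and 101 CPM on day 6, at least 492-fold higher. Its change was -0.53 and not called with the no-construct reference. Wnt4, a Wnt ligand, was at least 344-fold higher on day 6. Cd44, the hyaluronan receptor, was at least 318-fold higher, the serine protease Prss23 at least 334-fold higher and the carbonic anhydrase Car4 at least 204-fold higher. With the no-construct reference Cd44 changed by 0.26 and H19 by 1.04, neither called, and the other 7 genes of these 10 were still called higher.

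The largest falls were genes that undifferentiated ES oeCtrl cells expressed at moderate levels and that nearly vanished by day 6. Gpx2, a glutathione peroxidase, fell from 174 and 189.8 CPM to 0.363 and 0.663 CPM (log2 fold change -8.48 ± 0.23, adjusted p = 7.44e-18). Vwf, von Willebrand factor, fell from 169 and 163 CPM to 0.831 and 0.422 CPM (log2 fold change -8.00 ± 0.33, adjusted p = 2.62e-11). The keratin Krt42 fell from 68.5 and 99.5 CPM to 0.363 and 0.362 CPM. Tspo2 and Sycp2l, a meiotic chromosome protein, had no count on day 6 and were at least 87.0-fold lower and at least 68.1-fold lower. Crxos, Slc11a1, Dnajc5g, Hormad1 and Slfn9 completed the 10 and each held at most 0.181 CPM in any day 6 library. All 20 of these genes were chosen to have 2 groups that do not overlap, which held in 86.7% of all genes.

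Naive pluripotency genes fell together. Of 20 genes tested, 19 fell and none rose, with a median of -3.83 (-4.52 with the no-construct reference) against 0.03 for all genes. Nanog, the homeodomain factor of the naive network, stood at 979 and 1035 CPM before and 35.1 and 34.8 CPM on day 6 (log2 fold change -4.85 ± 0.087, adjusted p = 4.1e-21). Esrrb, an orphan nuclear receptor, stood at 1078 and 1108 CPM before and 19.9 and 22.6 CPM on day 6 (log2 fold change -5.69 ± 0.14, adjusted p = 1.08e-16). Both day 6 libraries were far below both undifferentiated ones in each case. Tfcp2l1, a factor downstream of LIF, fell by 5.05 on the log2 scale, Zfp42 (Rex1) by 4.34 and Klf4 by 3.73. Tcl1, a coactivator of AKT, was nearly lost, at 103 and 98.3 CPM before and 0.727 and 0.603 CPM on day 6, and Prdm14, a repressor of FGF signals and of DNA methylation, went to 0.519 and 0.784 CPM from 56.7 and 60.5 CPM. The smallest called fall of the list was that of Sall4, from 253 and 264 CPM to 132 and 133 CPM. Gbx2 was the member not called, at 2.52 and 3.59 CPM before and 2.65 and 2.65 CPM on day 6.

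Pou5f1 (Oct4) stood at 166 and 159 CPM before and 70.2 and 65.8 CPM on day 6 (log2 fold change -1.25 ± 0.077, adjusted p = 3.27e-12), a smaller fall than those of Nanog and Esrrb. Sox2 fell further, from 401 and 360.0 CPM to 38.7 and 37.7 CPM (log2 fold change -3.31 ± 0.084, adjusted p = 9.14e-19). Of 12 genes of the core list 8 fell and 3 rose, with a median of -0.85. The 3 that rose were the RNA-binding regulators Lin28a, from 23.4 and 28.2 CPM to 377 and 371 CPM (log2 fold change 3.86 ± 0.28, adjusted p = 8.2e-07), Lin28b, from 7.34 and 8.61 CPM to 61.9 and 66.5 CPM, and Trim71, with a small change of 0.63. Utf1 and Tdgf1, the Nodal coreceptor, fell by 1.47 and 2.48. In the ES libraries of no construct Utf1 was at 44.8 to 78.0 unscaled CPM, a range that holds its day 6 levels of 58.3 and 54.5.

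**Figure D2:**
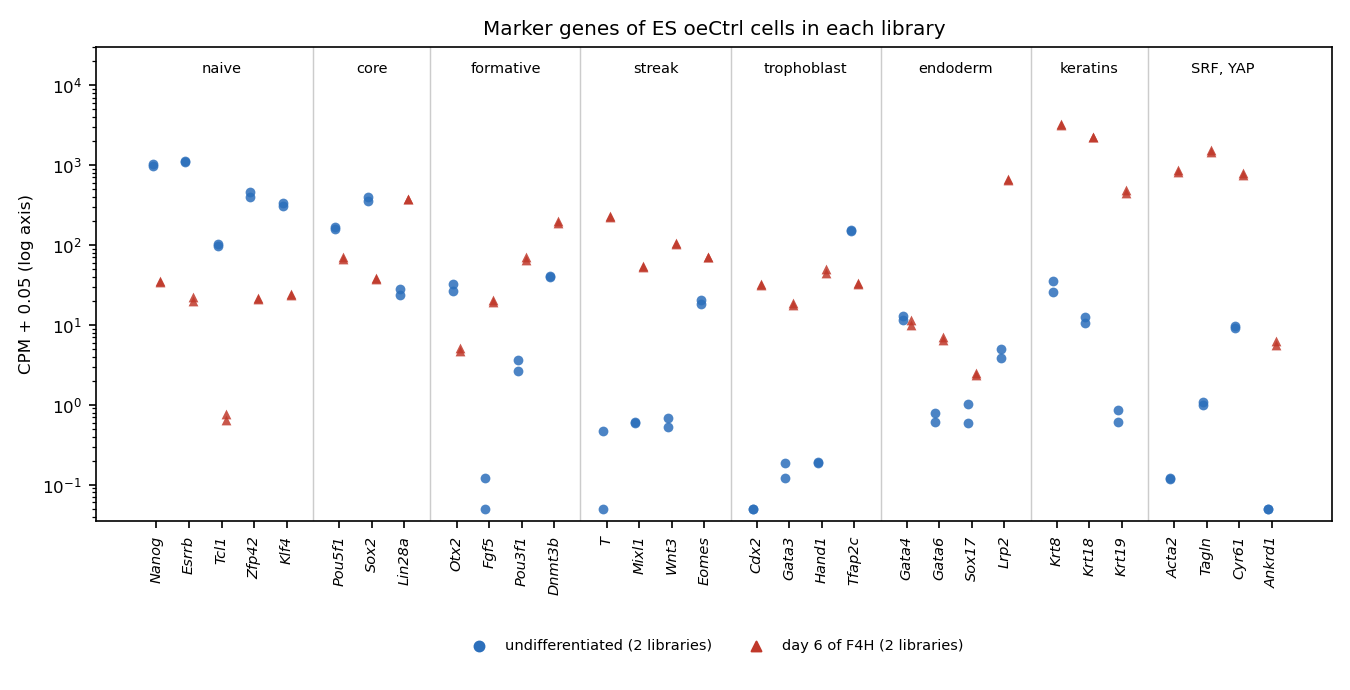
Level of 31 genes in each library of ES oeCtrl cells (vertical axis, CPM + 0.05 on a log axis): circles are the 2 undifferentiated libraries and triangles the 2 day 6 libraries. Naive genes such as Tcl1 drop to near 1 CPM while keratins, Acta2 and Tagln rise far above their undifferentiated levels, and the change of Gata4 was not called.

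Formative and primed epiblast genes did not move as one. Of 19 genes tested 13 rose and 5 fell, with a median of 1.97 (2.86 with the no-construct reference). Fgf5, the ligand that marks the formative epiblast, went from 0.0699 and 0 CPM to 19.11 and 20.6 CPM, a ratio of 575-fold, with a 95% counting interval of 103 to 22737. Pou3f1 (Oct6) rose from 2.59 and 3.59 CPM to 65.7 and 71.5 CPM, and Cdh2, N-cadherin, from 2.03 and 1.36 CPM to 124 and 137 CPM (log2 fold change 6.27 ± 0.17, adjusted p = 1.28e-17). The de novo DNA methyltransferase Dnmt3a rose from 13.5 and 14.3 CPM to 75.3 and 76.4 CPM (log2 fold change 2.45 ± 0.088, adjusted p = 3.81e-16). Otx2, in contrast, the homeodomain factor that drives exit from the naive state, fell from 32.1 and 26.8 CPM to 4.72 and 5.13 CPM (log2 fold change -2.58 ± 0.19, adjusted p = 1.09e-10). Zic2, Zic5, Foxd3 and Etv5 fell as well.

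Genes of LIF and STAT3, the cytokine pathway that supports naive cells, fell on balance: 10 of 16 fell and 3 rose, with a median of -1.03. Socs3, the feedback inhibitor, fell from 179 and 148 CPM to 27.8 and 30.1 CPM, and Stat3 itself from 242 and 252 CPM to 79.7 and 81.0 CPM. Bcl3 fell by 3.58. Lif, the ligand, and Junb, an AP-1 subunit, rose by 1.98 and 2.45.

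Targets of the ERK kinases, which 2i medium holds down by MEK inhibition, rose in 18 of 20 cases, with 2 falls and a median of 2.85. The no-construct reference left 14 higher and a median of 1.24. Dusp6 and Dusp4, phosphatases that feed back on ERK, went from 9.36 and 7.19 CPM to 184 and 179 CPM and from 8.87 and 5.42 CPM to 335 and 335 CPM (log2 fold change 5.55 ± 0.15, adjusted p = 3.19e-17 for Dusp4). Egr1, an immediate-early zinc finger factor, stood at 2.38 and 2.10 CPM before and 61.7 and 68.8 CPM on day 6 (log2 fold change 4.86 ± 0.21, adjusted p = 3.05e-12). Myc rose from 1.19 and 1.15 CPM to 111 and 107 CPM. The 2 that fell were Etv5, by 1.35, and Ier2, by 0.64.

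Among FGF ligands, receptors and cofactors 16 of 22 rose and 5 fell, with a median of 1.73. With the no-construct reference 13 rose and 3 fell, with a median of 1.30. The ligand of undifferentiated cells, Fgf4, fell from 364 and 332 CPM to 7.84 and 8.56 CPM (log2 fold change -5.41 ± 0.15, adjusted p = 3.27e-16). Ligands of later stages rose: besides Fgf5, Fgf8 went from 0.349 and 0.136 CPM to 42.5 and 38.8 CPM (log2 fold change 7.36 ± 0.24, adjusted p = 6.61e-17). The receptor Fgfr1 rose from 144 and 140.0 CPM to 436 and 434 CPM and Fgfr2 from 1.33 and 1.36 CPM to 31.3 and 31.4 CPM, whereas Fgfr4 fell to 0.675 and 0.362 CPM from 3.98 and 3.93 CPM.

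Wnt targets rose in 16 of 19 cases and fell in 2, with a median of 3.93 (2.86 with the no-construct reference). Axin2, the general feedback target, rose from 18.4 and 26.3 CPM to 76.6 and 72.4 CPM (log2 fold change 1.73 ± 0.19, adjusted p = 1.67e-06). Lef1, the transcription factor partner of beta-catenin, rose from 0.559 and 0.203 CPM to 27.3 and 27 CPM (log2 fold change 6.14 ± 1.51, adjusted p = 0.00557). The ligands Wnt3 and Wnt6 went from 0.629 and 0.475 CPM to 105 and 103 CPM and from 0.349 and 0.136 CPM to 92.4 and 92.0 CPM, and the secreted inhibitor Dkk1 from 0.140 and 0.136 CPM to 11.9 and 12.2 CPM. Tcf7 and Notum fell by 0.55 and 1.05.

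BMP ligands and their targets rose: 17 of 22 genes, with 3 falls and a median of 3.04 (2.29 with the no-construct reference). The ligand Bmp4 stood at 1.19 and 1.97 CPM before and 111 and 112 CPM on day 6 (log2 fold change 6.13 ± 0.14, adjusted p = 2.7e-19). Bmp2 reached 32.1 and 31.7 CPM and Bmp8b 62.8 and 57.8 CPM, from 0.140 and 0.136 CPM and 0.0699 and 0 CPM. The direct targets Id1, Id2 and Id3, which inhibit helix-loop-helix factors, rose from 1.54 and 1.49 CPM to 101 and 95.8 CPM, from 2.86 and 3.05 CPM to 83.2 and 88.6 CPM and from 0.279 and 2.03 CPM to 137 and 128 CPM. Nog, a secreted BMP antagonist, rose to 44.5 and 46.1 CPM. Bmp7, Smad9 and Id4 fell.

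Genes of Nodal and activin signalling were mixed, with 8 of 16 higher, 4 lower and a median of 0.29. The shares called were 50% and 25%, against 37.1% and 35.9% of all genes. The ligand Nodal was not called, at 69.7 and 78.5 CPM before and 68.6 and 68.3 CPM on day 6, nor was its inhibitor Lefty1, at 36.5 and 42.7 CPM before and 37.5 and 36.7 CPM on day 6. Lefty2, the other inhibitor, fell from 754 and 942 CPM to 25.7 and 25.3 CPM (log2 fold change -5.05 ± 0.25, adjusted p = 2e-08). Inhba and Fst, an activin subunit and an activin antagonist, rose by 4.79 and 2.96. Notch genes rose in 8 of 14 cases and fell in 3, with a median of 1.76. Notch2 rose from 40.8 and 45.2 CPM to 143 and 141 CPM and Jag2, a ligand, from 17.7 and 14.7 CPM to 64.6 and 57.6 CPM, while the target Hes1 was not called, at 80.8 and 79.4 CPM before and 55.2 and 60.6 CPM on day 6. In the retinoic acid list 14 of 18 rose and 4 fell, with a median of 2.16 (1.01 with the no-construct reference). Cyp26a1, which degrades retinoic acid, stood at 0.349 and 0.203 CPM before and 56.1 and 53.3 CPM on day 6 (log2 fold change 7.60 ± 0.20, adjusted p = 2.69e-18), and Rdh10, which makes its precursor, rose from 7.62 and 6.64 CPM to 62.5 and 65.5 CPM.

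Primitive streak and mesendoderm genes rose. T (Brachyury), the streak factor, stood at 0.419 and 0 CPM before and 229.6 and 221 CPM on day 6, with 6 counts in 1 undifferentiated library and none in the other (adjusted p = 5.68e-07). Its ratio was 1093-fold, with a 95% counting interval of 502 to 2979. Mixl1, a homeodomain factor of the streak, stood at 0.559 and 0.542 CPM before and 55.1 and 52.9 CPM on day 6 (log2 fold change 6.60 ± 0.22, adjusted p = 1.04e-16). Evx1 reached 39.2 and 38.8 CPM, and Lhx1, with no count before, 16.9 and 17.3 CPM, at least 82.8-fold higher. Eomes, which marks both streak and trophoblast, was already on before, at 18.0 and 20.3 CPM before and 70.2 and 70.7 CPM on day 6 (log2 fold change 1.88 ± 0.13, adjusted p = 3.42e-11). Of 18 genes tested 15 rose and 1 fell, with a median of 4.43, or 3.20 with genes absent from one group set at their lower bound. It was 2.95 with the no-construct reference. Gsc, of the anterior streak, was the one that fell, from 10.8 and 10.8 CPM to 4.57 and 4.22 CPM. Mesp1, Cer1, Sox17 and Foxa2, markers of later mesoderm and of endoderm, were called higher but reached at most 3.12 CPM in any library.

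Genes of lateral plate mesoderm and heart rose in 12 of 18 cases and fell in 1, with a median of 3.18 (1.69 with the no-construct reference). Hand1 went from 0.140 and 0.136 CPM to 44.3 and 49.4 CPM, a ratio of 339-fold, with a 95% counting interval of 132 to 1246. Msx2 rose from 0.489 and 0.339 CPM to 45.9 and 45.2 CPM, and Tbx20 from 3.42 and 5.83 CPM to 22.9 and 24.2 CPM. Isl1 and Tbx5 were not called, and Nkx2-5 reached only 2.23 and 2.95 CPM. Of 14 blood and endothelial genes 5 rose and 3 fell (35.7% and 21.4%, against 37.1% and 35.9% of all genes). Kdr (Flk1), a mesoderm and endothelial receptor, rose from 0.978 and 1.02 CPM to 25.3 and 24.2 CPM (log2 fold change 4.62 ± 0.19, adjusted p = 5.12e-15), and Runx1, a factor of definitive blood, from 0.279 and 0.136 CPM to 58.0 and 60.0 CPM, a ratio of 286-fold, with a 95% counting interval of 131 to 779. Pecam1, which naive ES cells express, fell from 199.6 and 186 CPM to 3.48 and 2.71 CPM (log2 fold change -5.95 ± 0.23, adjusted p = 2.14e-11). Tal1 and Gata1 were not called and held at most 1.12 CPM. The list median was 0.81, and -0.46 where genes had to reach 1 CPM in 2 libraries to be tested, a rule that keeps fewer genes.

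Neural genes were mixed. Of 15 tested, 7 rose and 3 fell (46.7% and 20%, against 37.1% and 35.9% of all genes). The median was 0.87, and -0.13 with the no-construct reference. Sox11 rose from 11.3 and 12.7 CPM to 233 and 244 CPM (log2 fold change 4.31 ± 0.11, adjusted p = 9.85e-19), and Nes, an intermediate filament also found outside neural cells, from 76.2 and 75.7 CPM to 337 and 330.1 CPM. Sox1, the earliest definitive neural factor, fell from 11.7 and 9.22 CPM to 0.675 and 0.121 CPM (log2 fold change -4.63 ± 0.83, adjusted p = 0.000477), Olig2 fell from 10.8 and 8.34 CPM to 1.82 and 1.45 CPM, and Pax6 was not called, at 1.89 and 0.678 CPM before and 0.675 and 0.905 CPM on day 6. Of 24 Hox genes tested 15 rose and 2 fell, with a median of 1.72. Levels stayed low. Hoxb9 reached 13.6 and 15.9 CPM from 6.36 and 7.59 CPM and Hoxd9 reached 15.0 and 15.7 CPM from 3.0 and 3.25 CPM. Hoxc4 and Hoxd13 fell.

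Trophoblast stem and progenitor genes split into a set that appeared and a set that fell. Cdx2, the trophectoderm homeodomain factor, had no count before and 32.8 and 31.3 CPM on day 6, at least 155-fold higher (adjusted p = 6.42e-07). Gata3 went from 0.0699 and 0.136 CPM to 18.5 and 17.6 CPM, a ratio of 175-fold, with a 95% counting interval of 59.8 to 853, and Krt7 from 10.8 and 9.36 CPM to 119 and 108 CPM. Fgfr2 and Bmp4 rose as given above. Tfap2c, in contrast, fell from 153 and 152 CPM to 33.0 and 32.2 CPM (log2 fold change -2.22 ± 0.24, adjusted p = 1.2e-05), Tead4 from 117 and 142 CPM to 66.0 and 64.0 CPM, Elf3 by 1.12, and Sox21 from 15.4 and 9.08 CPM to 1.14 and 0.965 CPM. Elf5, which defines committed trophoblast stem cells, had too few counts to be tested, at 0.210 and 0.203 CPM before and 0.104 and 0.121 CPM on day 6. In all, 13 of 20 genes rose and 7 fell, with a median of 1.36. Cdx2, Hand1, Eomes, Bmp4 and Fgfr2 are also expressed in the streak or mesoderm, so the list is not specific to trophoblast.

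Of 18 genes of differentiated trophoblast in the tables only 8 had enough counts to be tested, and 7 of them rose, with a median of 3.87, or 1.61 with absent genes at their bound (4.61 with the no-construct reference). Members near 0 before passed the count filter only through counts in another group, such as day 6, so the filter favoured genes that rose. With no count filter 7 of 12 rose. Flt1, a VEGF receptor shared with endothelium, rose from 0.699 and 0.407 CPM to 64.3 and 63.9 CPM (log2 fold change 6.84 ± 0.21, adjusted p = 1.87e-17). Plac1 reached 4.21 and 4.10 CPM, and Gcm1, the syncytiotrophoblast factor, 1.30 and 1.69 CPM, at least 7.23-fold higher. The placental hormones Prl3d1 and Prl3b1, and Tpbpa of the spongiotrophoblast, were among those not tested for lack of counts. Ada, another member that rose, turned to -0.19 with the no-construct reference.

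Among endoderm genes some basement membrane and keratin genes rose more than the lineage factors Gata4 and Sox17. The primitive endoderm markers (Gata4, Gata6, Sox17, Sox7, Pdgfra and Dab2) summed to 17.0 and 18.9 unscaled CPM before and to 74.7 and 77.0 on day 6. Gata4, Gata6 and Sox17, given below, made up the smaller part of the day 6 sum, and the rest came from Sox7, Pdgfra and Dab2. Of 24 genes of primitive and extraembryonic endoderm 18 rose and 4 fell, with a median of 3.44 (2.44 with the no-construct reference). Lrp2 (megalin), the endocytic receptor of visceral endoderm and other epithelia, stood at 3.84 and 4.95 CPM before and 649.8 and 671 CPM on day 6 (log2 fold change 7.23 ± 0.13, adjusted p = 2.91e-21). Col4a1 and Col4a2, the basement membrane collagens, rose from 16.6 and 13.2 CPM to 1082 and 1061 CPM and from 11.9 and 9.83 CPM to 703 and 682 CPM, and the laminin chain Lamb1 from 44.5 and 43.1 CPM to 544 and 527 CPM. Among the factors, Gata6 reached 6.39 and 6.99 CPM from 0.559 and 0.746 CPM (log2 fold change 3.34 ± 0.35, adjusted p = 2.4e-08) and Sox17 only 2.34 and 2.47 CPM from 0.978 and 0.542 CPM (log2 fold change 1.65 ± 0.35, adjusted p = 0.00026). Gata4 was not called, at 11.5 and 13.0 CPM before and 11.3 and 9.89 CPM on day 6 (log2 fold change -0.20 ± 0.14, adjusted p = 0.186), and with the no-construct reference it was higher on day 6, by 1.15. Lama1 and Apoe fell by 2.25 and 1.73. Afp, Ttr and Apoa1, products of visceral endoderm, had too few counts to be tested. In the parietal endoderm list 11 of 15 rose and 3 fell, with a median of 3.34, which was 0.32 (7 higher, 4 lower) with the no-construct reference. Plat, tissue plasminogen activator, reached 51.6 and 54.3 CPM from 0 and 0.0678 CPM, and Thbd reached 11.2 and 7.96 CPM from 0.140 and 0.407 CPM.

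Simple epithelial genes rose in 21 of 22 cases, with 1 fall and a median of 1.61 (2.31 with the no-construct reference). The type II keratin Krt8 and its partner Krt18 rose together: Krt8 stood at 26.1 and 35.4 CPM before and 3297 and 3209 CPM on day 6 (log2 fold change 6.73 ± 0.21, adjusted p = 3.54e-12) and Krt18 at 12.4 and 10.4 CPM before and 2254 and 2234 CPM on day 6 (log2 fold change 7.62 ± 0.10, adjusted p = 5.79e-23). Krt19 rose from 0.559 and 0.814 CPM to 483 and 445 CPM (log2 fold change 9.38 ± 0.13, adjusted p = 1.41e-22). The claudin Cldn6 rose from 13.2 and 12.9 CPM to 374 and 352 CPM and the desmosomal Dsp from 111 and 147 CPM to 1148 and 1153 CPM. Cdh1, E-cadherin, which ES cells express, changed little, at 1264 and 1476 CPM before and 1670.1 and 1669 CPM on day 6 (log2 fold change 0.29 ± 0.089, adjusted p = 0.00669). Grhl2, a factor that maintains epithelia, rose from 1.33 and 1.56 CPM to 67.9 and 63.7 CPM. Spint1, a protease inhibitor, was the one that fell, by 0.97.

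Genes of the epithelial to mesenchymal switch rose in the same libraries: 20 of 21 rose and 1 fell, with a median of 4.55, or 3.63 with absent genes at their bound. Snai1 rose from 0.419 and 0.136 CPM to 22.7 and 19.9 CPM (log2 fold change 6.24 ± 0.27, adjusted p = 1.12e-14) and Zeb2 from 0.908 and 0.136 CPM to 39.1 and 34.4 CPM. Vim, vimentin, rose from 106 and 95.5 CPM to 1069 and 1031 CPM, and Tgfb2 from 0.908 and 1.02 CPM to 112 and 117 CPM. S100a6, a calcium-binding protein, rose from 0.489 and 0.271 CPM to 315 and 283 CPM. Zeb1 fell from 16.1 and 16.3 CPM to 7.16 and 6.69 CPM. The median was 1.27 with the no-construct reference, with 13 higher and 4 lower. In a bulk library the presence of epithelial and mesenchymal genes together does not tell whether they were in the same cells, and more cells of a type and more RNA per cell cannot be told apart.

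The list of SRF, the serum response factor that binds CArG boxes, holds contractile and cytoskeletal targets and the factors Srf and Myocd. All of its genes rose, 23 of 23, with a median of 4.19, or 3.11 with Myocd, which had no count before, at its bound. Tagln (SM22), an actin-binding protein of smooth muscle, stood at 1.05 and 0.949 CPM before and 1544 and 1449 CPM on day 6 (log2 fold change 10.54 ± 0.14, adjusted p = 5.79e-23). Cnn1, calponin, reached 112 and 106 CPM from 0 and 0.0678 CPM, a ratio of 3170.2-fold, with a 95% counting interval of 569 to 125247. Tpm1, tropomyosin, rose from 105 and 99.5 CPM to 3000.0 and 3005 CPM (log2 fold change 4.88 ± 0.094, adjusted p = 8.71e-21), and Tpm2 from 4.12 and 3.46 CPM to 287 and 275 CPM. Broadly expressed members rose less: Actb by 0.79, Vcl (vinculin) by 2.50, and Srf itself by 1.58. Markers of mature smooth muscle were low, with Myh11 at 2.86 and 2.77 CPM and its coactivator Myocd at 1.45 and 2.11 CPM on day 6. The list kept all 23 rises with the no-construct reference, with a median of 3.43.

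The list of YAP and TEAD, which read cell spreading and tension, holds their targets and the factors Yap1 and Wwtr1. All of its genes rose too, 16 of 16, with a median of 4.76, or 4.65 with absent genes at their bound. Cyr61 (Ccn1), a matricellular protein, stood at 9.64 and 9.22 CPM before and 788 and 755 CPM on day 6 (log2 fold change 6.35 ± 0.11, adjusted p = 4.1e-21). Ctgf (Ccn2) rose from 4.19 and 4.41 CPM to 145 and 139.8 CPM, and Axl, a receptor kinase, from 3.98 and 2.98 CPM to 157 and 156 CPM. Ankrd1, with no count before, reached 6.18 and 5.49 CPM, at least 28.2-fold higher. Yap1 itself and its paralog Wwtr1 (TAZ) rose by 0.83 and 1.02. With the no-construct reference 15 of 16 rose, with a median of 2.38.

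Promoters of these 2 lists are shown because their members moved together and the binding motifs of their factors are short enough to be read in the sequence. RefSeq promoters (GRCm38.p6, from 250 bases before to 50 after the start, 32851 in all) were matched to 12141 of the tested genes. The TEAD motif GGAATG, searched on both strands, was in 11 of 15 promoters of the YAP and TEAD list (73.3%), in 8 of 19 of the SRF list (42.1%), in 14.7% of all promoters and in 12.6% of those of tested genes. The CArG box, which reads alike on both strands, was in 5 of 19 promoters of the SRF list (26.3%), in none of the 15 of the YAP and TEAD list, in 1.63% of all promoters and in 1.35% of those of tested genes. The lists hold known targets of these factors, so the shares describe the lists. Among promoters of genes called at least 2-fold higher 14.8% held GGAATG and 2.01% a CArG box, and among those called at least 2-fold lower 13.0% and 1.2%. The 250 bases before the start are printed 5′ to 3′ on the strand of the gene, with matches to the motif of the promoter's own list in capitals (CATTCC is GGAATG on the other strand). The TEAD promoters are those of Cyr61 (chr3:145649986-145650235, minus strand, a match 103 bases before the start), Ankrd1 (chr19:36119845-36120094, minus strand, 210 and 123 bases before), Amotl2 (chr9:102717554-102717803, plus strand, 65 bases before) and Axl (chr7:25788734-25788983, minus strand, 233 bases before).
Cyr61: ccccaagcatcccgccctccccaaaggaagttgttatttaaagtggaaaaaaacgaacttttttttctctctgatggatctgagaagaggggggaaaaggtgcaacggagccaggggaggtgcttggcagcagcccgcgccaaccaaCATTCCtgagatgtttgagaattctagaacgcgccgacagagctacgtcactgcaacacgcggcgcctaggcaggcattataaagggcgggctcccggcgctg
Ankrd1: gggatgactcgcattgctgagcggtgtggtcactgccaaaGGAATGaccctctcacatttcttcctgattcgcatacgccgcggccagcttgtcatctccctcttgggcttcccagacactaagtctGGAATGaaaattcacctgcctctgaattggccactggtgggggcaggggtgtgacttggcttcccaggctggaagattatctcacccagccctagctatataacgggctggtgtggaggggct
Amotl2: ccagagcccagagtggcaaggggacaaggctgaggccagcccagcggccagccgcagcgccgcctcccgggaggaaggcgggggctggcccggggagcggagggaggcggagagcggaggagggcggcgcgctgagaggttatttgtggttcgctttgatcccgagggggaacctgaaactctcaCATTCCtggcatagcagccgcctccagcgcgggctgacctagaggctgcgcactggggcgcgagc
Axl: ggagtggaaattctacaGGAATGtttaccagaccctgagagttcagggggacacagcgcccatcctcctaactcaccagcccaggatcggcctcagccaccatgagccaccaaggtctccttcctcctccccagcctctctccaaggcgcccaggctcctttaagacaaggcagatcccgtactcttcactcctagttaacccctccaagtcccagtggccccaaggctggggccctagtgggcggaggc
The CArG promoters are those of cytoplasmic actin Actg1 (chr11:120348496-120348745, minus strand, a match 90 bases before the start), the myosin light chain Myl9 (chr2:156775214-156775463, plus strand, 161 bases before), Vcl (chr14:20929148-20929397, plus strand, 227 bases before) and Srf, which holds 2 matches (chr17:46556163-46556412, minus strand, 82 and 62 bases before). The Vcl promoter also holds GGAATG, left in lower case.
Actg1: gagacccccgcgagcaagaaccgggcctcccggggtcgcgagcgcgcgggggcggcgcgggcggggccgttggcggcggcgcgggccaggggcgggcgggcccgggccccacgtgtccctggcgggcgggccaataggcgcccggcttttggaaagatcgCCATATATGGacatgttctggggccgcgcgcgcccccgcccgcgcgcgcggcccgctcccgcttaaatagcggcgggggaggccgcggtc
Myl9: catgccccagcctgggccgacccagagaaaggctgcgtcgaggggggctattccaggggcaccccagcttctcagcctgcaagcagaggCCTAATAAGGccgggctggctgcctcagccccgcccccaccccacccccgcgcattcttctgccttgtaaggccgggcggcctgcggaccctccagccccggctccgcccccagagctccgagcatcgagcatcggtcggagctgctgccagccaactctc
Vcl: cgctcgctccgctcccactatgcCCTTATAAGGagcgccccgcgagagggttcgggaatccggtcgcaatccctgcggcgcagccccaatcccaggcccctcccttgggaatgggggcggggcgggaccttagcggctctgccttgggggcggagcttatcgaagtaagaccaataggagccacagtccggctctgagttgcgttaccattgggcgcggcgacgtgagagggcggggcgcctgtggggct
Srf: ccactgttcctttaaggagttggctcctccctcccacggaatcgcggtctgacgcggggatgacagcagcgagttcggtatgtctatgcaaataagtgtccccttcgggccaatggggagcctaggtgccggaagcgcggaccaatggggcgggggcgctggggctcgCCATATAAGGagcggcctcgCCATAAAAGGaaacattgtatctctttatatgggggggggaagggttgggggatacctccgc
Every tested member of the 2 lists rose, with or without a match, so the rises of these 8 genes do not bear on the motifs. Actg1 rose from 534 and 481 CPM to 2995 and 2860.5 CPM and Myl9 from 0.140 and 0.136 CPM to 51.8 and 43.3 CPM. Vcl rose from 77.2 and 99.7 CPM to 511 and 492 CPM and Srf from 52.5 and 58.2 CPM to 171 and 161 CPM. Amotl2 rose from 133 and 129 CPM to 651 and 646 CPM. Acta2 and Cnn1, 2 of the largest changes of the list, held no CArG box in this window. A match is a string of letters, and no binding was measured in these libraries.

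Fibroblast genes rose in 19 of 20 cases, with none lower and a median of 4.89, or 4.42 with absent genes at their bound. Col1a1, the fibrillar collagen, stood at 0.908 and 1.56 CPM before and 325 and 319 CPM on day 6 (log2 fold change 8.01 ± 0.15, adjusted p = 8.29e-21), Col1a2 at 0.210 and 0.475 CPM before and 85.6 and 83.5 CPM on day 6 and Pdgfrb at 2.45 and 1.42 CPM before and 36.3 and 36.7 CPM on day 6. Dcn reached 4.88 and 4.52 CPM and Postn 2.91 and 3.92 CPM, while Lum, a further fibroblast marker, stayed at 0.0519 and 0.181 CPM and was not called. ES cells were kept on fibroblast feeders or on Matrigel, with no label saying which library, so the markers were also summed in each library. The 8 fibroblast markers summed to 5.0 and 4.2 unscaled CPM in undifferentiated oeCtrl cells, to 479.9 and 479.0 on day 6 and to between 1957 and 3598 in the 3 undifferentiated ES libraries of no construct. With those 3 as the reference the list turned, to a median of -2.36 with 1 member higher and 15 lower: Col1a1 to -1.60 and Col1a2 to -3.0. The part of feeder RNA in either result was not tested.

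**Figure D3:**
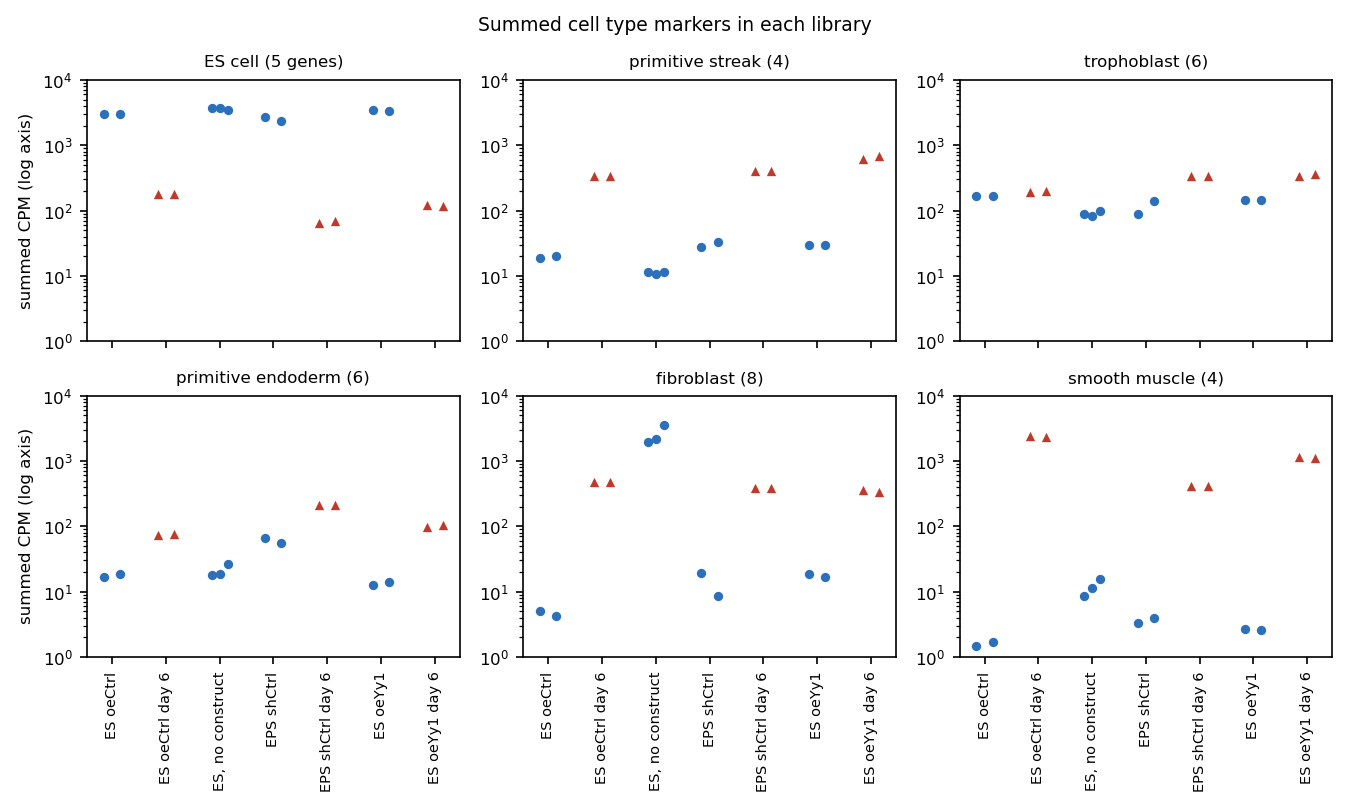
Summed level of the markers of 6 cell types (vertical axes, unscaled CPM, log axes) in each library of 7 groups: circles are undifferentiated and triangles day 6 libraries. Fibroblast markers are lowest in undifferentiated ES oeCtrl cells (4.2 and 5.0) and highest in the ES libraries of no construct (1957 to 3598), while smooth muscle markers are highest in ES oeCtrl cells on day 6 (2435 and 2316).

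Genes of the DNA methylation machinery moved in both directions. In naive cells in 2i the genome is held at low methylation, and methylation returns as cells leave that state. The de novo enzymes rose: Dnmt3a as above and Dnmt3b from 39.5 and 41.0 CPM to 198 and 187 CPM (log2 fold change 2.26 ± 0.24, adjusted p = 9.79e-06), and their cofactor Dnmt3l from 2.59 and 2.78 CPM to 18.2 and 21.0 CPM (log2 fold change 2.86 ± 0.28, adjusted p = 4.83e-07). The maintenance pair fell, Dnmt1 from 613 and 668 CPM to 269 and 256 CPM and Uhrf1 from 860.3 and 913 CPM to 227 and 226 CPM (log2 fold change -1.97 ± 0.072, adjusted p = 5.01e-16). The oxidases Tet1 and Tet2 fell by 3.39 and 2.76, and Tet3 rose from 23.8 and 22.2 CPM to 121 and 125 CPM. Over the list 9 of 18 rose and 8 fell (50% and 44.4%, against 37.1% and 35.9% of all genes), with a median of 0.31. The change of Dnmt3l was 0.28 with the no-construct reference and was not called.

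Germline genes that DNA methylation silences in somatic cells fell in 12 of 18 cases and rose in 2, with a median of -2.75 (-2.14 with the no-construct reference). Dazl, an RNA-binding protein of germ cells, fell from 22.8 and 20.2 CPM to 0.312 and 0.724 CPM (log2 fold change -5.39 ± 0.46, adjusted p = 6.79e-08) and Hormad1, a meiotic chromosome protein, from 45.1 and 31.7 CPM to 0 and 0.181 CPM. Tex14 and Rpl10l fell by 6.09 and 5.27. Ddx4 and Mael were the 2 that rose, to 14.1 and 13.7 CPM and 1.45 and 1.81 CPM. Methylation was not measured in these libraries.

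Imprinted genes rose in 19 of 24 cases and fell in 4, with a median of 2.22. With the no-construct reference 14 were higher and 5 lower, with a median of 1.13. Peg10, a retrotransposon-derived gene needed in the placenta, stood at 10.4 and 13.2 CPM before and 7896 and 8052 CPM on day 6 (log2 fold change 9.40 ± 0.70, adjusted p = 2.19e-06). Igf2, the growth factor next to H19, stood at 0.279 and 0.475 CPM before and 255 and 247 CPM on day 6 (log2 fold change 9.35 ± 0.16, adjusted p = 3.46e-21), and Nnat rose from 2.38 and 1.42 CPM to 366 and 337 CPM. Of the cluster on chromosome 12, Dlk1 rose from 0.629 and 0.271 CPM to 24.3 and 21.3 CPM, Meg3 was not called, at 178 and 163 CPM before and 163 and 159 CPM on day 6, and Rian and Mirg fell by 0.65 and 0.44. Plagl1 and Slc22a18 fell. H19 and Igf2 were near 0 in undifferentiated oeCtrl cells but not in ES libraries of no construct, where H19 was at 150 to 299 and Igf2 at 274 to 556 unscaled CPM. Against these H19 changed by 1.04 and Igf2 by -0.67, neither called.

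Subunits of polycomb repressive complex 2 fell: 8 of 11, with 1 rise and a median of -0.92 (8 falls, 2 rises and -0.65 with the no-construct reference). Mtf2, an accessory subunit, fell from 346 and 350.2 CPM to 81.1 and 78.5 CPM (log2 fold change -2.12 ± 0.073, adjusted p = 1.53e-16), Suz12 from 323 and 331 CPM to 113 and 118 CPM, and Ezh2, the methyltransferase, fell by 0.92. Rbbp7 rose by 0.65. Genes of the 2-cell-like state stayed near the limit of detection. Of 12 such genes counted, 5 could be tested and 4 were called higher, but none passed 0.727 CPM in any day 6 library. With no count filter 12 were tested and 4 called higher, so the filter favoured genes that rose here too. Zscan4c, the marker of that state, had no count before and 0.727 and 0.422 CPM on day 6, at least 2.78-fold higher. The list median was 4.93, or 1.48 with absent genes at their bound. None of the genes had enough counts to be tested in a fit to the 4 libraries alone or with a replicate block, 3 were called with DESeq2, and 2 or 3 when single libraries were left out, which ended the calls of Zscan4f and Usp17la.

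**Figure D4:**
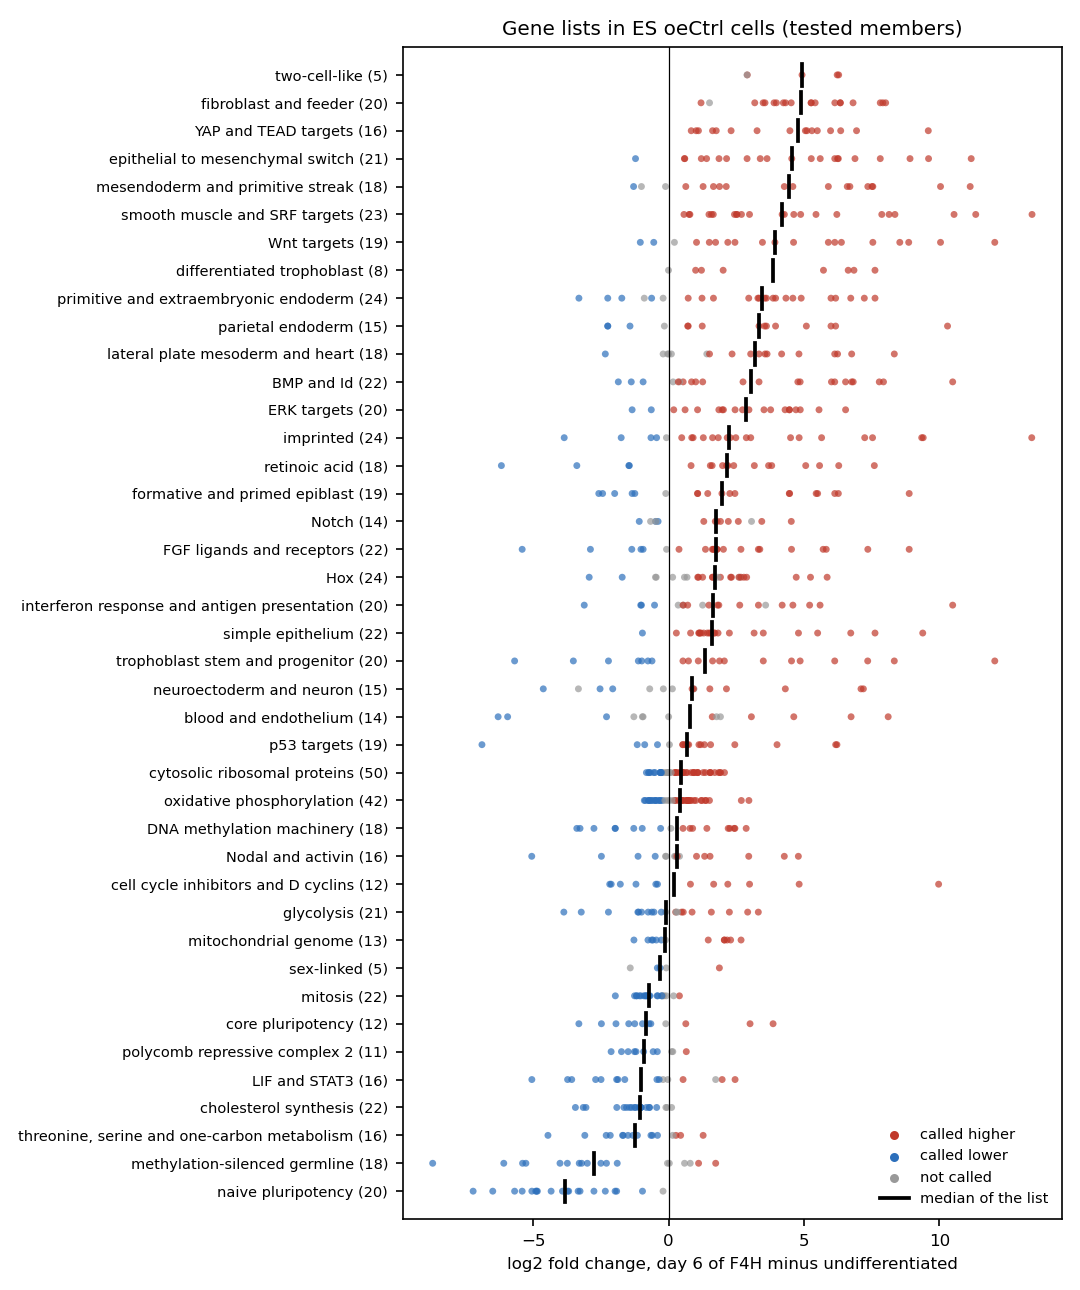
Log2 fold change of day 6 minus undifferentiated (horizontal axis) of each tested member of 41 gene lists (rows, with the number tested), coloured by its call; the black bar is the median of the list. Medians run from -3.83 for naive pluripotency to 4.93 for the 5 genes of the 2-cell-like list and 4.89 for the fibroblast list; with genes absent from one group at their bound these are 1.48 and 4.42, and the YAP and TEAD list is highest at 4.65.

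Enzymes of cholesterol synthesis and uptake fell together, 19 of 22 with none higher and a median of -1.07. The no-construct reference left 14 lower and put 2 higher, with a median of -0.60. Dhcr7, of the last step of synthesis, fell from 307 and 322 CPM to 37.1 and 38.7 CPM (log2 fold change -3.05 ± 0.10, adjusted p = 1.39e-16), and Insig1, which holds the sterol sensor in place, from 397 and 400.4 CPM to 46.0 and 43.5 CPM (log2 fold change -3.15 ± 0.094, adjusted p = 1.36e-17). Genes of threonine, serine and one-carbon metabolism fell in 12 of 16 cases and rose in 3, with a median of -1.24. The no-construct reference left 10 lower and 0 higher, with a median of -1.25. Tdh, the threonine dehydrogenase on which mouse ES cells depend, fell from 251 and 271 CPM to 11 and 12.8 CPM (log2 fold change -4.46 ± 0.21, adjusted p = 1.54e-09), and its partner Gcat by 3.09. Gldc rose from 56.4 and 39.7 CPM to 119.8 and 112 CPM.

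Glycolysis genes had 8 of 21 higher, 10 lower and a median of -0.11, which was 0.04 without replicate 2 of the undifferentiated cells. Those counts were 38.1% and 47.6%, against 37.1% and 35.9% of all genes. The glucose transporters Slc2a1 and Slc2a3 rose from 188 and 226 CPM to 1604 and 1525 CPM and from 1383 and 1449 CPM to 4204 and 4247 CPM, while Pfkp fell from 404 and 448 CPM to 30.4 and 27.8 CPM (log2 fold change -3.87 ± 0.13, adjusted p = 8.17e-15) and Hk1 by 2.22. Pfkfb3, which makes an activator of phosphofructokinase, rose from 18.9 and 19.12 CPM to 195 and 183 CPM.

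Nuclear genes of oxidative phosphorylation had 24 of 42 higher and 14 lower (57.1% and 33.3%), with a median of 0.42. Of 50 ribosomal protein genes 30 were higher and 12 lower (60% and 24%), with a median of 0.46. The shares of all genes were 37.1% and 35.9%. Ndufa2 of complex I rose from 5.87 and 6.78 CPM to 50.9 and 47.9 CPM, and Rplp2 of the ribosomal stalk from 208 and 198 CPM to 803 and 702 CPM. Rps6 and Atp5b fell by 0.82 and 0.61. Both lists turned with the no-construct reference: none of 42 was then higher and 32 were lower (median -0.78), and none of 50 was higher and 46 were lower (median -0.86). Of 13 genes of the mitochondrial genome 6 were higher and 6 lower (46.2% each). Of those that fell, mt-Co1 went from 17550.0 and 16482 CPM to 6788 and 7212 CPM (log2 fold change -1.28 ± 0.083, adjusted p = 8.22e-12). The 6 that rose were all low, the highest being mt-Co2 at 2.24 and 1.83 CPM before and 8.83 and 9.41 CPM on day 6.

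Mitotic genes fell, 17 of 22, with 1 rise and a median of -0.74. Nusap1, a spindle protein, fell from 236 and 219 CPM to 55.5 and 61.0 CPM (log2 fold change -1.97 ± 0.10, adjusted p = 5.98e-14) and Ube2c, of the anaphase-promoting machinery, from 353 and 356 CPM to 151 and 145 CPM. Cdk1 rose by 0.40, and Mki67 was not called, at 281 and 385 CPM before and 276 and 299 CPM on day 6. Under the no-construct reference 9 were lower and 6 higher, with a median of -0.15. Of 12 cell cycle inhibitors and D cyclins 6 rose and 6 fell (50% each, against 37.1% and 35.9% of all genes). Ccnd1 rose from 47.6 and 53.7 CPM to 233 and 228 CPM and Ccnd2 from 0.140 and 0 CPM to 75.8 and 77.4 CPM, a ratio of 1112-fold, with a 95% counting interval of 308 to 9190.1, while Ccnd3 fell from 259 and 257 CPM to 113 and 110.3 CPM. The inhibitors Cdkn2a and Cdkn2b rose by 1.66 and 2.99, and Cdkn1b (p27) fell by 1.78.

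Targets of p53 rose in 14 of 19 cases and fell in 4, with a median of 0.69. With the no-construct reference 9 were higher and 5 lower, with a median of 0.21. Perp, also a desmosomal protein of epithelia, rose from 5.73 and 5.08 CPM to 381 and 398 CPM (log2 fold change 6.17 ± 0.11, adjusted p = 4.1e-21), and Mdm2, the feedback ligase, from 196 and 192 CPM to 473 and 497 CPM. Cdkn1a (p21) fell slightly, at 337 and 319.9 CPM before and 248 and 246 CPM on day 6 (log2 fold change -0.41 ± 0.11, adjusted p = 0.00308), and Gdf15 fell from 61.8 and 52.6 CPM to 0.623 and 0.302 CPM. Interferon and antigen presentation genes had 12 of 20 higher and 4 lower, with a median of 1.65. Tap1, the peptide transporter, rose from 2.17 and 1.02 CPM to 57.9 and 59.6 CPM (log2 fold change 5.21 ± 0.19, adjusted p = 4.69e-16) and B2m, the light chain of class I molecules, from 10.8 and 8.88 CPM to 96.6 and 99.7 CPM, whereas Stat2 fell from 127 and 128 CPM to 14.4 and 15.0 CPM (log2 fold change -3.12 ± 0.10, adjusted p = 4.61e-17). This list had a median of -0.50 with the no-construct reference, and B2m changed by -0.53.

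Transcripts of the Y chromosome were present at both stages, with Ddx3y at 48.4 and 54.8 CPM before and 46.0 and 51.1 CPM on day 6 and not called. Eif2s3y and Uty fell by 0.32 and 0.42, calls that were lost when single libraries were left out, and with the no-construct reference their changes were 0.80 and 0.71. The median of the 5 sex-linked genes was -0.32, and 0.71 with that reference. Kdm5d rose from 0.489 and 0.814 CPM to 2.13 and 2.71 CPM. Xist was low throughout, at 1.19 and 2.10 CPM before and 0.675 and 0.543 CPM on day 6, and not called. Medians per chromosome lay between -0.15 on chromosome 17 and 0.29 on chromosome 1 for the autosomes and at 0.20 for the X.

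ES oeCtrl and EPS shCtrl cells differ in starting cell, labelled construct and medium before F4H, which cannot be told apart. The no-construct reference was not run for differences between lines. The difference between the change in ES oeCtrl cells and that in EPS shCtrl cells was tested. This difference was called for 8376 of 17207 genes (48.7%), 4459 with a higher value in ES oeCtrl cells (25.9%) and 3917 with a lower one (22.8%). The 2 undifferentiated EPS shCtrl libraries differed more than any other pair in the fit, with a chi-square of 20.2 per degree of freedom. Under scaling to total counts alone the split was 3730 to 4699 and the median of all differences moved by -0.14. Naive genes fell less far in ES oeCtrl cells, with 15 of 20 differences called in that direction and none in the other. Esrrb in EPS cells stood at 1014 and 946 CPM before and 0.527 and 1.59 CPM on day 6 (difference 4.15 ± 0.26, adjusted p = 5.02e-10), and the difference for Nanog was 0.70 ± 0.12, adjusted p = 3.53e-05. Pou5f1 stood at 273 and 275 CPM before and 30.4 and 33.8 CPM on day 6 in EPS cells (difference 1.84 ± 0.11, adjusted p = 2.57e-11). Otx2 was higher on day 6 in EPS cells, in contrast to its fall in ES oeCtrl cells, at 0.922 and 0.683 CPM before and 22.2 and 24.1 CPM on day 6 (difference -7.42 ± 0.33, adjusted p = 2.96e-13). Gata4 stood at 14.2 and 15.0 CPM before and 46.5 and 49.6 CPM on day 6 in EPS cells (difference -1.92 ± 0.18, adjusted p = 2.98e-08). Germline genes had 11 of 18 differences higher and none lower, ERK targets 12 of 20 higher and none lower, and interferon genes 14 of 20 lower and none higher. For the streak factor T, at 2.64 and 10.6 CPM before and 226 and 227 CPM on day 6 in EPS cells, the difference was 4.94 ± 1.15, adjusted p = 0.00646, and for Eomes, at 24.0 and 22.5 CPM before and 105 and 104 CPM on day 6, it was -0.29 ± 0.17, adjusted p = 0.182.

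The same test against ES oeYy1 cells called 6475 differences (37.6%), 3423 higher in oeCtrl cells (19.9%) and 3052 lower (17.7%). Which side was larger depended on the setting: the split was 2994 to 3453 with total counts alone, 3123 to 3197 with no count filter, 3205 to 3258 with a filter of 1 CPM and 3004 to 3014 with DESeq2. Naive genes again fell less far in oeCtrl cells, in 14 of 20 cases against 1. Zfp42 stood at 543 and 541 CPM before and 7.08 and 6.18 CPM on day 6 in oeYy1 cells (difference 2.01 ± 0.15, adjusted p = 2.89e-09). Hox genes had 10 of 24 differences lower and none higher, simple epithelial genes 10 of 22 lower and 1 higher, and cholesterol genes 15 of 22 lower and 2 higher. The change of Egr1 was larger in oeYy1 cells, at 2.42 and 2.84 CPM before and 305 and 329 CPM on day 6 (difference -2.05 ± 0.38, adjusted p = 0.00051). So was that of Gata6, at 0.201 and 0.146 CPM before and 14.4 and 13.6 CPM on day 6 (difference -2.92 ± 0.77, adjusted p = 0.00465). Fibroblast genes had 10 of 20 differences higher and none lower. Their list summed to 45.1 and 35.2 unscaled CPM in oeCtrl cells before F4H and to 98.5 and 100 in oeYy1 cells. On day 6 the list sum was no higher in oeCtrl cells, at 1260 and 1258 against 1370 and 1317. The smooth muscle markers summed to 2435 and 2316 unscaled CPM in oeCtrl cells on day 6, to 1129 and 1098 in oeYy1 cells and to 406 and 409 in EPS shCtrl cells, while a further group, EPS cells with a Yy1 hairpin on day 6, had 2172.5 and 2147. The 2 differences share the ES oeCtrl libraries.

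**Figure D5:**
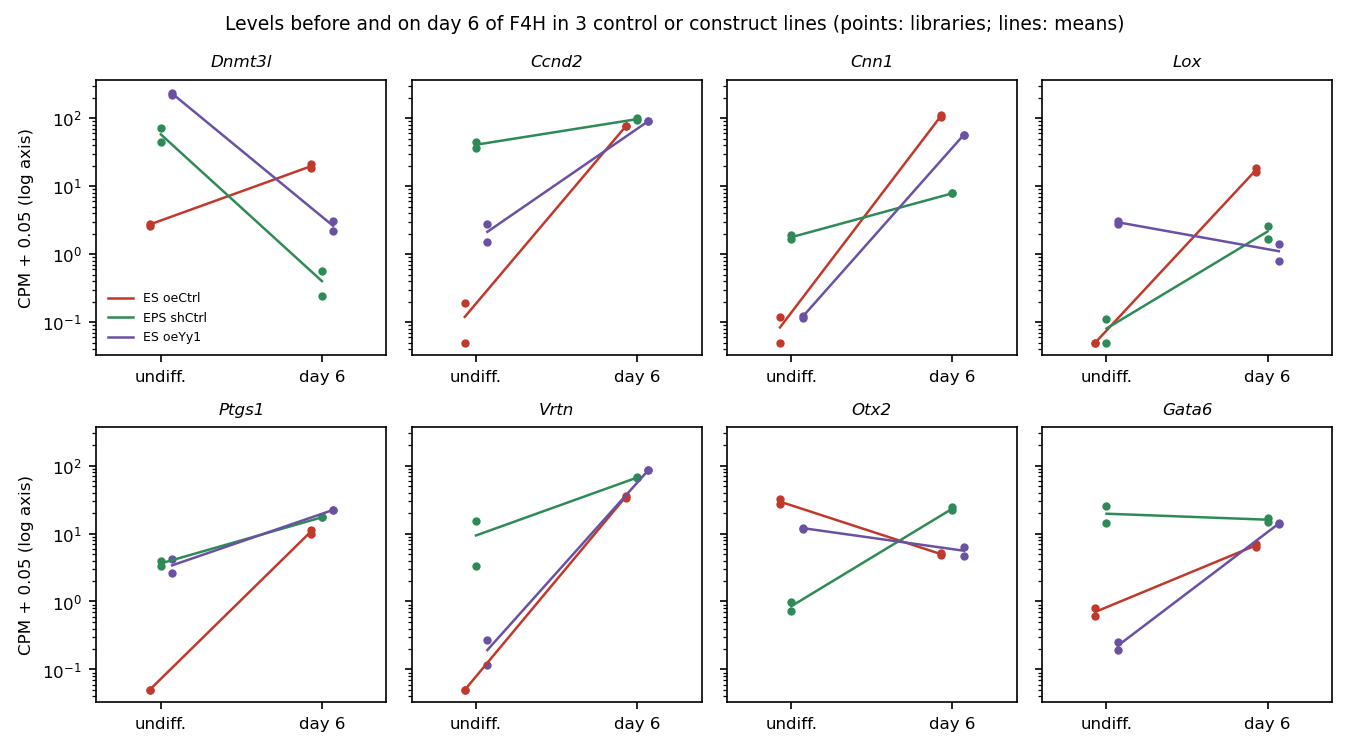
Level of 8 genes (vertical axes, CPM + 0.05, log axes) before and on day 6 of F4H in ES oeCtrl, EPS shCtrl and ES oeYy1 cells; points are libraries and lines join the means. Dnmt3l is higher on day 6 in ES oeCtrl cells and lower in the other 2 lines, and Otx2 is lower in ES oeCtrl cells and higher in EPS cells.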

How the data were processed

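RNA-seq libraries of mouse ES and EPS cells were compared from the tables of raw counts per gene that the authors deposited, 1 table per library. Per the submitters' processing notes, CASAVA, Bowtie2 2.3.2, mm10 and GRCm38.p6 were used, with no role stated. The counting program and its use of strand are not given in the sources used here, so reads of overlapping or antisense genes cannot be told apart. Summary lines that name no gene were dropped: reads on no feature were 5.61 to 6.24% and ambiguous reads 4.14 to 5.24% of reads in the 4 libraries compared. Count tables were used for 22 samples, and 41 samples were not analysed here.

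Genes that passed edgeR's filterByExpr (17207 of 47517) were tested in R 4.3.3 with edgeR 4.0.16 (TMM factors, robust quasi-likelihood test, Benjamini-Hochberg adjustment over all genes tested, called at adjusted p under 0.05). The fit held 16 libraries in 8 groups (day 6 and undifferentiated, control and Yy1 constructs in ES and EPS cells), which share 1 estimate of the spread because each group has 2 libraries. Differences between lines are interaction contrasts of the same fit. In each simulation 67, 67 and 66 genes were changed 1.5-fold, 2-fold and 4-fold, in the day 6 oeCtrl group only. All other genes had the same mean share in every group. In the data 73% of genes were called, so the simulated shares may not hold there. With 16250 genes fitted, the first contrast called 64.2% of genes changed 1.5-fold, 82.1% of those changed 2-fold and 100% of those changed 4-fold. Of its calls 4.09% were false. For the difference from EPS cells the shares were 31.3%, 65.7% and 90.9%, with 6.72% of calls false (16212 genes), and for that from oeYy1 cells 37.3%, 68.7% and 87.9%, with 1.53% false (16194 genes).

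The comparison, the 41 gene lists (748 of 753 symbols were in the tables) and the tests were chosen with earlier results of these data known. Lists are described by counts and medians, with no test. Genes named are the 10 largest rises and falls among called genes of at least 5 CPM on average whose groups do not overlap (unnamed clones and pseudogenes left out), up to 4 called genes of smallest p per list, the 6 largest differences against each other line, a fixed set of markers and further list members as examples. A median with absent genes at their bound takes 3 counts per library for a group with 0 counts. Ratios of low counts carry a 95% interval that covers counting error only. Gene promoters came from RefSeq. A few single-gene results are not reported here. Alternatives were other scalings and filters, DESeq2 1.42.0, other sets of libraries, each library left out, a replicate block, and 3 undifferentiated ES libraries labelled without a construct as reference.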

Additional observations from a re-analysis of the deposited data

Results flagged for a closer look

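For 10 genes the day 6 change in ES oeCtrl cells differed from that of another line, and these were the 6 largest differences against each line among genes of at least 5 CPM on average, in both cases by edgeR's quasi-likelihood test and Benjamini-Hochberg adjusted p. Dnmt3l, the cofactor of de novo methylation, differed from both lines. It rose in ES oeCtrl cells, while it stood at 44.9 and 71.0 CPM before and 0.192 and 0.514 CPM on day 6 in EPS shCtrl cells (difference 10.18 ± 0.45, adjusted p = 5.32e-10) and at 224 and 239.8 CPM before and 2.99 and 2.13 CPM on day 6 in ES oeYy1 cells (difference 9.36 ± 0.38, adjusted p = 7.87e-10). In oeCtrl cells it was lower than in either line before F4H, and its day 6 libraries (18.2 and 21.0 CPM) were higher than theirs.

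Against EPS shCtrl cells, Ccnd2, a D cyclin, stood at 37.0 and 44.8 CPM before and 99.6 and 95 CPM on day 6 in those cells (difference 8.72 ± 0.36, adjusted p = 1.17e-13), and Cnn1, calponin, at 1.60 and 1.86 CPM before and 7.86 and 7.80 CPM on day 6 (difference 9.17 ± 0.50, adjusted p = 5.81e-12). Vrtn, a regulator of vertebral number, stood at 3.32 and 15.3 CPM before and 67.7 and 65.5 CPM on day 6 in EPS cells and at 0 and 0 CPM before and 36.0 and 33.7 CPM on day 6 in ES oeCtrl cells (difference 9.33 ± 2.39, adjusted p = 0.0131). With the replicate number as a block its adjusted p was 0.139. The noncoding RNA Halr1 stood at 0.699 and 0.203 CPM before and 0.415 and 0.422 CPM on day 6 in ES oeCtrl cells and at 54.3 and 52.8 CPM before and 0.0959 and 0.140 CPM on day 6 in EPS cells (difference 8.64 ± 0.85, adjusted p = 4.47e-08). Zfp36l3 stood at 0 and 0 CPM before and 13.2 and 12.5 CPM on day 6 in ES oeCtrl cells and at 0.738 and 4.78 CPM before and 6.57 and 6.63 CPM on day 6 in EPS cells (difference 9.46 ± 1.66, adjusted p = 0.000523).

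Against ES oeYy1 cells, Lox, lysyl oxidase of the matrix, stood at 0 and 0 CPM before and 16.4 and 18.7 CPM on day 6 in oeCtrl cells and at 2.75 and 3.06 CPM before and 1.36 and 0.755 CPM on day 6 in oeYy1 cells (difference 12.62 ± 0.77, adjusted p = 3.84e-10). Col12a1 stood at 0.604 and 0.874 CPM before and 43.7 and 46.6 CPM on day 6 in oeYy1 cells (difference 7.78 ± 0.94, adjusted p = 2.22e-06), with an adjusted p of 0.199 when all 22 libraries shared one fit. Ptgs1, a cyclooxygenase, stood at 0 and 0 CPM before and 9.81 and 11.3 CPM on day 6 in oeCtrl and at 2.55 and 4.15 CPM before and 22.5 and 21.9 CPM on day 6 in oeYy1 cells (difference 7.70 ± 0.96, adjusted p = 3.09e-06). Sorbs2, an adaptor of the actin cytoskeleton, stood at 0 and 0 CPM before and 14.4 and 15.7 CPM on day 6 and at 1.01 and 0.874 CPM before and 9.05 and 7.83 CPM on day 6 (difference 7.80 ± 1.38, adjusted p = 0.000176). For Zfp36l3, at 2.35 and 2.11 CPM before and 12.7 and 12.4 CPM on day 6 in oeYy1 cells, the difference was 8.24 ± 1.90, adjusted p = 0.00492. Where a group held no count (Lox, Col12a1, Ptgs1, Sorbs2, Vrtn and Zfp36l3), the fitted difference depends on the small count added by the fit and is no bound.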

How the results depend on the processing

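Counts of genes called higher and lower stayed within 1.5 times of 6388 and 6176 in every alternative run: other scaling factors (RLE, upper quartile, total counts), no count filter or a filter of 1 CPM, DESeq2 (6225 and 5769), a fit to the 4 libraries alone (6244 and 5896), a fit to all 22, each library left out (5889 to 6025 and 5547 to 5754) and the 3 ES libraries of no construct as reference (5900 and 6148). The replicate number as a block gave 6245 and 5912. The numbers do not pair the samples by any label, and deviations of same-numbered samples correlated at 0.085. With the libraries of no construct as reference 19 genes named here changed sign: Ada to -0.19, B2m to -0.53, Col12a1 to -0.53, Col1a1 to -1.60, Col1a2 to -3.0, Col5a1 to -0.048, Cox4i1 to -0.12, Eif2s3y to 0.80, Gata4 to 1.15, H2-D1 to -0.47, Halr1 to 1.89, Igf2 to -0.67, Lox to -3.27, Rpl19 to -0.17, Rpl37 to -0.85, Rplp2 to -0.57, Stmn2 to -0.13, Uty to 0.71 and mt-Nd5 to 0.049. It also moved the medians of 36 of 41 gene lists by more than the spread between libraries. The cause was not tested. A further 10 named genes were weaker with this reference, among them Cd44, which changed by 0.26 and was not called. Depth limits genes near 0 most: the 2-cell-like list had no tested member in the fit to the 4 libraries or with the block, and the fold of the 435 genes with no undifferentiated count that were called higher is known only as a lower bound.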
